A study of Homo sapiens with 62 samples.

Results

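Organoids directed toward kidney were compared with organoids directed toward liver, both grown from WIBR3, an established human embryonic stem cell line. Nephron organoids were sampled on day 13 and hepatic organoids on day 21, and every library carries the treatment label PN96, which the labels do not spell out. In the embryonic stem cell time course of the series, libraries titled +PF127 carry PN96 and those titled -PF127 carry NT96. Each tissue had 3 genotypes with 2 libraries each: NEAT1ko-clone1 and NEAT1ko-clone2, which are NEAT1-/- and each represent 1 clone, and a control called CTR, whose making the labels do not give. The comparison therefore takes 6 nephron and 6 hepatic libraries, 12 of the 62 polyA RNA-seq libraries of the series, chosen by tissue, day and genotype label. A second pair, WT nephron organoids of day 7 and WT hepatic organoids of day 21 with 2 libraries each, is set beside them, and its fit also takes 2 WT hepatic libraries of day 17 for the estimate of spread.

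Kidney and liver come from different germ layers. Nephrons arise from intermediate mesoderm, whose progenitors express PAX, EYA and sine oculis homeobox transcription factors before they turn into podocytes and tubule cells. Hepatocytes arise from foregut endoderm and come to secrete most of the proteins of blood plasma. Both organs also hold stroma, the connective tissue cells that make collagen matrix and that keep a regional identity encoded by transcription factors such as those of the HOX clusters. Bulk RNA mixes all of these cells, so fewer cells of a type and less RNA per cell cannot be told apart. Tissue, day of sampling and differentiation protocol differ together here and cannot be told apart either.

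Levels are the authors' TPM, which scale each transcript by its length and each library to the same total. TPM keeps no record of how deeply a library was sequenced, and that depth is unknown here. Unless stated otherwise, a gene is described by the lowest, median and highest of the 6 libraries of a tissue. Differences are nephron minus hepatic on log2(TPM + 1) with their standard error, from limma with genotype as a covariate, and they understate the change of genes with few TPM. A gene was called higher or lower where its adjusted p over all tested genes was under 0.05. Whether the paired libraries of each genotype are separate cultures is not stated, and the p-values therefore reflect spread that may be technical.

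NEAT1, a long non-coding RNA that scaffolds paraspeckles, was checked first in each library. In nephron organoids it had 0.0207 and 0.0276 TPM in clone 1 and 0.543 and 0.590 TPM in clone 2, against 30.7 and 44.2 TPM in CTR. In hepatic organoids it had 0.353 and 0.142 TPM in clone 1 and 0.463 and 0.566 TPM in clone 2, against 39.8 and 44.2 TPM in CTR. The knockout libraries were thus far below CTR in both tissues. Over all compared libraries NEAT1 was not called between tissues (log2 difference -0.14 ± 0.14, limma adjusted p = 0.416). Most of these libraries lack NEAT1 by knockout, so that fit cannot tell whether the tissues differ in NEAT1. The CTR values, from 2 libraries per tissue, overlapped.

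Of 22835 genes tested, 13332 were called, which is 58.4%. Higher in nephron organoids were 8705 genes, 38.1% of those tested, and lower were 4627 genes, 20.3%. Counts of calls in the gene lists below are to be read against these shares. At least 2-fold changes were even in direction, with 2295 called genes higher and 2294 lower, whereas at least 10-fold changes were 71 higher and 219 lower. The median difference over all tested genes was 0.21. Rescaling by size factors moved that median to -0.01 and the share of called genes that were higher in nephron organoids to 46.7%, against 65.3% as deposited, so small differences should be read against this shift. The first principal component separated the tissues and held 63.8% of the variance. The second held 10.3%, and at its ends lay 2 hepatic libraries: clone 1 replicate 1, with few pluripotency transcripts, and clone 2 replicate 2, with few liver transcripts. Without these 2 libraries, a choice made after seeing the data, 12994 genes were called.

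**Figure D1:**
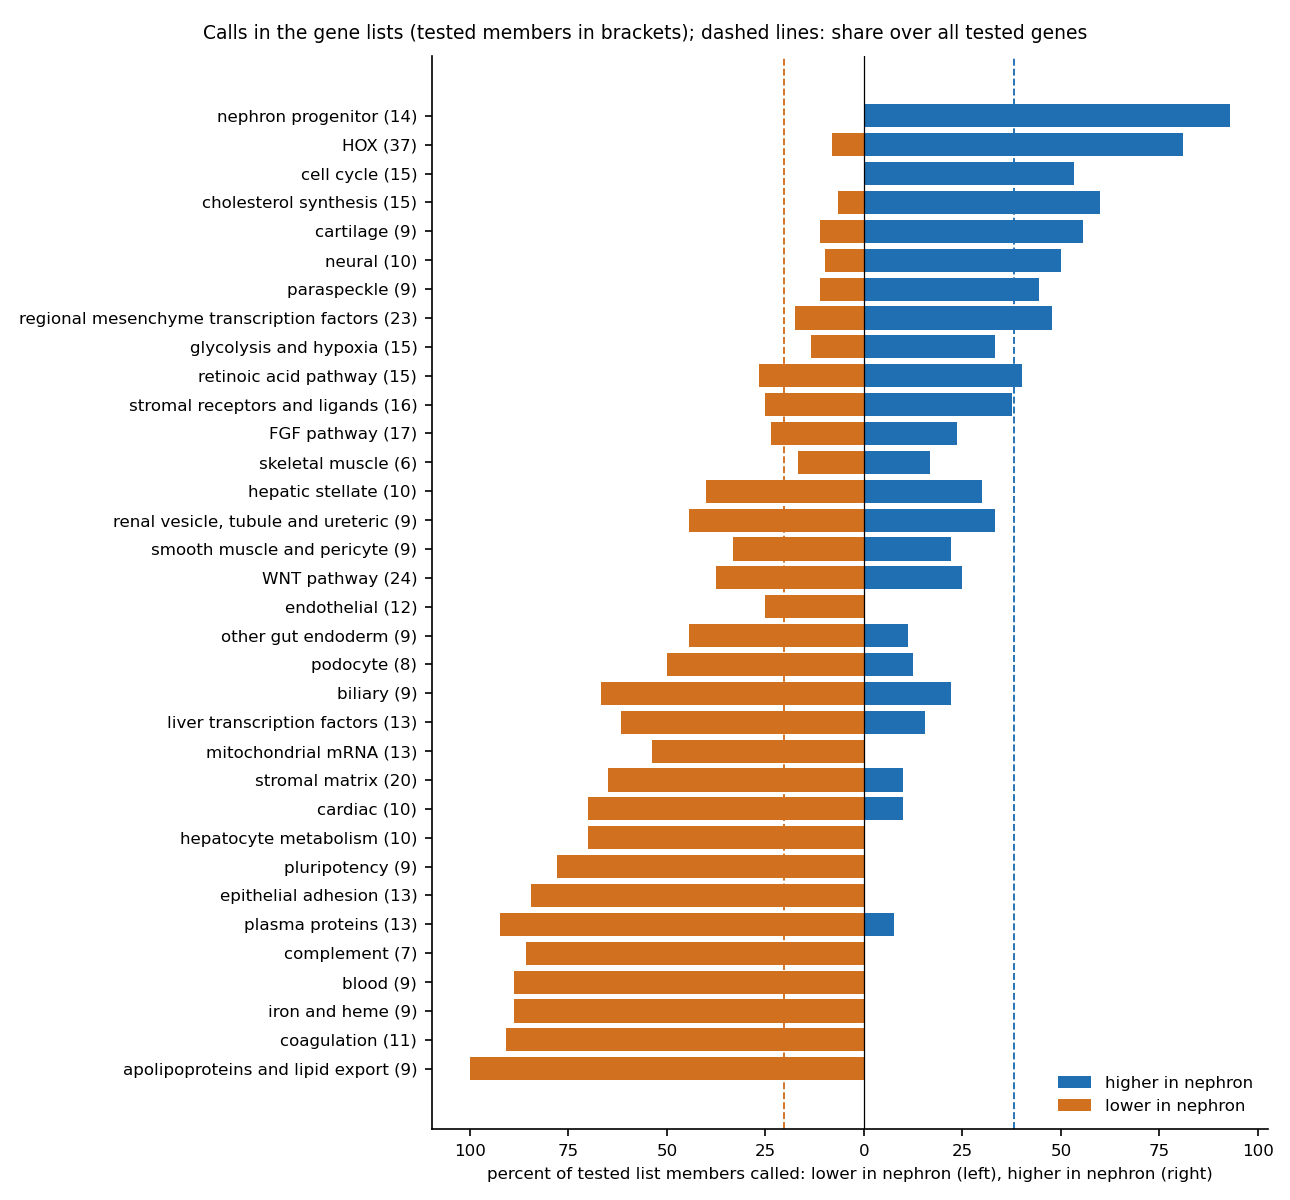
Share of the tested members of each gene list that were called, in percent, with members higher in nephron organoids drawn to the right and members lower in nephron organoids to the left; the number of tested members stands in brackets. The dashed lines mark the shares over all tested genes, 38.1% higher and 20.3% lower; nephron progenitor and HOX genes lie at the top, and liver secretory genes at the bottom.

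Genes of early nephron progenitors were higher in nephron organoids, while most podocyte and tubule markers were lower, not called or below the filter. Among 15 genes of the progenitor and intermediate mesoderm list, 13 were higher, none was lower, 1 was not called and 1, LHX1, had a symbol in several rows and was not used. Their median difference was 2.66, beside 0.21 over all tested genes. PAX8, a paired-box factor of the renal lineage, had 9.12, 39.5 and 66.5 TPM in nephron organoids, against 0.0419, 0.169 and 0.5997 TPM in hepatic organoids. No hepatic library reached the lowest nephron library, and the difference was 4.92 ± 0.33 (adjusted p = 4.15e-07). SIX2, which maintains the progenitor state, also separated the tissues, with 4.78, 61.3 and 72.5 TPM in nephron organoids, against 1.06, 1.41 and 2.002 TPM in hepatic organoids (log2 difference 3.97 ± 0.45, adjusted p = 1.82e-05).

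One nephron library, CTR replicate 1, held the lowest level of both genes. It had 9.12 TPM of PAX8 and 4.78 TPM of SIX2, so the lowest values above all come from the same library. PAX2, which acts beside PAX8, had 9.87, 26.9 and 66.9 TPM in nephron organoids, against 0.145, 0.495 and 3.62 TPM in hepatic organoids (log2 difference 3.83 ± 0.42, adjusted p = 1.51e-05). MEOX1, a mesodermal homeobox gene of somites and nephrogenic mesenchyme, had 30.4, 81.7 and 211 TPM in nephron organoids, against 0.438, 1.53 and 5.08 TPM in hepatic organoids (log2 difference 4.95 ± 0.51, adjusted p = 9.70e-06). WT1, needed in progenitors and later in podocytes, had 7.75, 16.7 and 18.2 TPM in nephron organoids, against 0.317, 1.37 and 3.67 TPM in hepatic organoids (log2 difference 2.68 ± 0.32, adjusted p = 2.64e-05). EYA1, a cofactor of SIX2, was also higher (log2 difference 1.91 ± 0.24, adjusted p = 4.68e-05), with 26.6 TPM in nephron and 6.02 TPM in hepatic organoids as medians. SALL1, a zinc finger factor of cap mesenchyme, differed less (log2 difference 0.78 ± 0.30, adjusted p = 0.0427), its libraries overlapped between tissues, and its call was lost when any of 7 libraries was left out, with adjusted p of 0.0516 to 0.102. Among these genes PAX2 alone had a difference that depended on genotype (interaction adjusted p = 0.0249): 5.76 in clone 1, 2.61 in clone 2 and 3.13 in CTR. HOXD11, listed here for its role in metanephric mesenchyme, was not called (log2 difference 0.46 ± 0.35, adjusted p = 0.273), though without nephron CTR replicate 2 it was (log2 difference 0.76, adjusted p = 0.0318).

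The later kidney genes gave a different picture. UMOD, the tubular protein uromodulin, was listed at 0 in all 12 libraries. NPHS1, which encodes nephrin, had 0.830, 1.10 and 1.74 TPM in nephron organoids, against 0.366, 2.17 and 3.77 TPM in hepatic organoids and was not called (log2 difference -0.40 ± 0.27, adjusted p = 0.224). Of 12 podocyte genes 1 was higher, 4 were lower, 3 were not called and 4 lay below the filter of 1 TPM in 2 libraries. PODXL, a sialomucin of podocytes that other epithelia and stem cells also carry, was lower in nephron organoids, with 14.8, 20.1 and 159 TPM in nephron organoids, against 334, 417 and 488 TPM in hepatic organoids (log2 difference -3.63 ± 0.41, adjusted p = 1.74e-05). The highest nephron libraries were the CTR pair, with 78.5 and 159 TPM, and still lay below every hepatic library. VEGFA, an endothelial growth factor, was the podocyte list member that was higher (log2 difference 0.58 ± 0.20, adjusted p = 0.0247), and that call was lost after rescaling by size factors and without nephron clone 1 replicate 1 (adjusted p = 0.0619), nephron clone 2 replicate 2 (0.0513) or hepatic clone 1 replicate 1 (0.0556).

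Of 15 genes of renal vesicle, tubule and ureteric epithelium, 3 were higher, 4 were lower, 2 were not called, 5 lay below the filter and 1 had a repeated symbol. JAG1, a Notch ligand of the renal vesicle, was higher (log2 difference 1.10 ± 0.30, adjusted p = 0.00788), with 57.0 TPM in nephron and 30.04 TPM in hepatic organoids as medians. POU3F3, a factor of the distal nephron, had 0.178, 4.51 and 18.4 TPM in nephron organoids, against 0, 0.302 and 1.68 TPM in hepatic organoids (log2 difference 2.06 ± 0.49, adjusted p = 0.0035), and its 2 highest libraries were those of clone 1. SLC3A1, a subunit of the proximal tubule transporter of cystine, was higher, with 24.8, 28.3 and 31.6 TPM in nephron organoids, against 13.4, 15.7 and 19.3 TPM in hepatic organoids (log2 difference 0.79 ± 0.10, adjusted p = 5.97e-05). LRP2 and CUBN, the partner receptors of proximal tubule endocytosis, were lower. LRP2 had 3.68, 5.56 and 8.78 TPM in nephron organoids, against 14.9, 33.1 and 40.8 TPM in hepatic organoids (log2 difference -2.17 ± 0.24, adjusted p = 1.84e-05), and CUBN had 0.799, 0.962 and 1.91 TPM in nephron organoids, against 4.59, 7.07 and 15.4 TPM in hepatic organoids (log2 difference -2.08 ± 0.23, adjusted p = 1.74e-05). Both are also known from yolk sac endoderm. GATA3, a factor of the ureteric bud that many other tissues use, was lower as well (log2 difference -1.42 ± 0.20, adjusted p = 8.56e-05), and RET, the GDNF receptor of the ureteric tip, had 1.497 TPM in nephron and 2.67 TPM in hepatic organoids as medians and was not called. Set against the label, most genes of the nephron progenitor list were higher than in hepatic organoids. Their sum had 203, 561 and 640 TPM in nephron organoids, against 74.6, 83.1 and 127 TPM in hepatic organoids. Lung, cortical and hESC libraries had medians of 156.5, 107 and 113 TPM. Later markers were divided, with SLC3A1 higher, LRP2 and CUBN lower, NPHS1 not called and UMOD listed at 0.

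**Figure D2:**
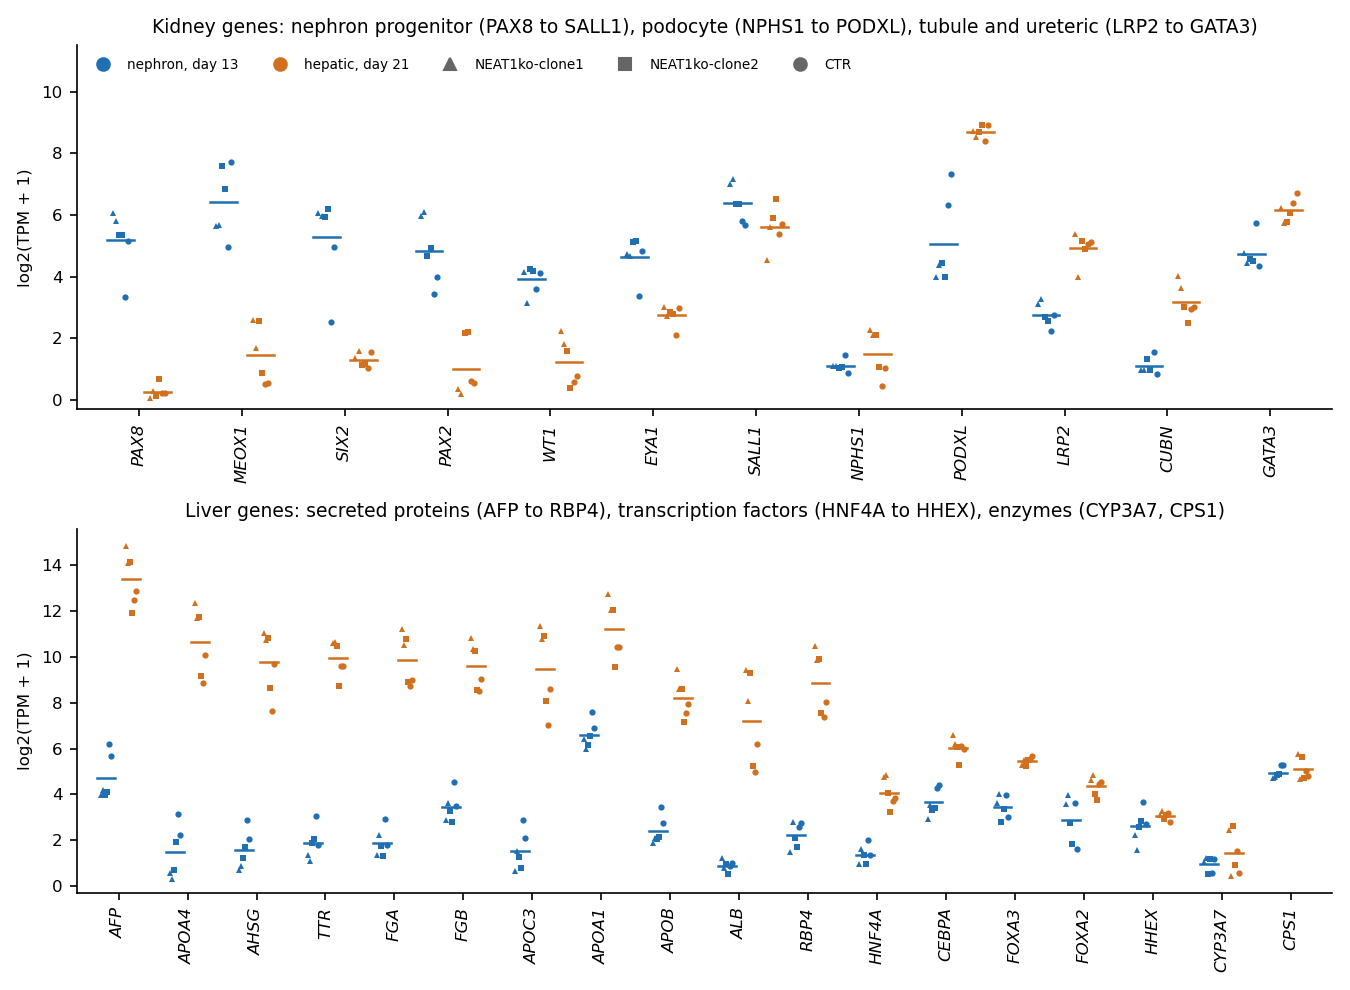
Level of kidney genes (upper panel) and liver genes (lower panel) as log2(TPM + 1) in each library, with nephron organoids in blue left of hepatic organoids in orange, the symbol showing the genotype and the line the mean of 6 libraries. Progenitor genes such as PAX8 and SIX2 and secreted liver proteins such as AFP and FGA do not overlap between tissues, while CPS1 and HHEX do.

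HOX genes of all 4 clusters were higher in nephron organoids. They encode homeodomain factors that assign position along the body axis, and paralogue groups with higher numbers act further toward the tail. Of 39 HOX genes 30 were higher in nephron organoids, 3 were lower, 4 were not called and 2 lay below the filter. The median difference was 3.55, and in 30 genes the 6 nephron and 6 hepatic libraries did not overlap, as was the case for 32.8% of all tested genes. The summed level of the list was 2909, 3407 and 4097 TPM in nephron organoids, against 133, 274 and 478 TPM in hepatic organoids. Lung organoids of day 19 with the same genotypes had a median sum of 322 TPM, while cortical organoids had 0.930 TPM and hESC had 1.13 TPM.

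All 10 of the largest rises with a mean of at least 20 TPM came from HOX clusters, on chromosomes 2, 7, 12 and 17. HOXB9 was the most abundant, with 642, 843 and 1003 TPM in nephron organoids, against 1.41, 3.06 and 10.2 TPM in hepatic organoids (log2 difference 7.44 ± 0.29, adjusted p = 1.00e-08). HOXD4 had the largest rise, with 217, 295 and 326 TPM in nephron organoids, against 0, 0.1597 and 0.996 TPM in hepatic organoids (log2 difference 7.79 ± 0.17, adjusted p = 2.76e-10). HOXD3, its neighbour, had 27.9, 32.9 and 42.2 TPM in nephron organoids, against 0, 0 and 0.0649 TPM in hepatic organoids and was listed at 0 in most hepatic libraries (log2 difference 5.07 ± 0.13, adjusted p = 5.05e-10). In the HOXA cluster on chromosome 7 the rise was broad. HOXA5 had 106, 162 and 200.2 TPM in nephron organoids, against 0, 0.418 and 2.93 TPM in hepatic organoids (log2 difference 6.54 ± 0.29, adjusted p = 2.72e-08). HOXA6 (6.32 ± 0.22), HOXA7 (5.33 ± 0.31), HOXA9 (5.57 ± 0.39) and HOXA3 (5.04 ± 0.20) were among the 10 as well. HOXA-AS3, an antisense transcript of the cluster, moved with them (log2 difference 5.30 ± 0.24, adjusted p = 2.61e-08). Whether the libraries kept strand is not stated, so its reads cannot be told apart from those of the HOXA genes that it overlaps. HOXC10, from the HOXC cluster, had 48.4, 132 and 228 TPM in nephron organoids, against 0.332, 1.44 and 7.76 TPM in hepatic organoids (log2 difference 5.45 ± 0.43, adjusted p = 1.23e-06).

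Position within the clusters divided the calls. Of 30 genes in paralogue groups 1 to 10, 29 were higher in nephron organoids and 1, HOXD10, was not called (log2 difference 0.52 ± 0.32, adjusted p = 0.185) unless nephron CTR replicate 2 was left out (adjusted p = 0.024). Of 9 genes in groups 11 to 13, 1 was higher, 3 were lower, 3 were not called and 2 lay below the filter. HOXA11, which acts in metanephric mesenchyme, was the member that was higher (log2 difference 2.48 ± 0.34, adjusted p = 7.42e-05). HOXC13 (log2 difference -0.81 ± 0.24, adjusted p = 0.0115), HOXD12 (log2 difference -0.78 ± 0.24, adjusted p = 0.0153) and HOXD13 (log2 difference -0.77 ± 0.21, adjusted p = 0.00748) were lower, all from levels of a few TPM or less, and the HOXD12 call was lost without the 2 hepatic libraries that stood apart. HOXA13, a factor of hindgut and distal limb, had 2.12, 5.15 and 16.2 TPM in nephron organoids, against 0.505, 12.8 and 28.4 TPM in hepatic organoids and was not called (log2 difference -0.66 ± 0.44, adjusted p = 0.219), except without hepatic clone 2 replicate 1 (log2 difference -1.11, adjusted p = 0.00565). HOXC11 was not called either (log2 difference 0.69 ± 0.28, adjusted p = 0.0532).

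The HOXB cluster differed in another way, since hepatic organoids also had sizeable levels of several of its genes. Hepatic means were 28.2 TPM for HOXB6 and 22.95 TPM for HOXB8, against 10.25 TPM for HOXB1 and 4.34 TPM for HOXB9. HOXB2 had 75.3, 84.7 and 97.0 TPM in nephron organoids, against 34.4, 47.1 and 73.8 TPM in hepatic organoids (log2 difference 0.79 ± 0.17, adjusted p = 0.00208). HOXB4 had 72.0, 88.0 and 106 TPM in nephron organoids, against 18.9, 25.4 and 54.4 TPM in hepatic organoids (log2 difference 1.57 ± 0.16, adjusted p = 1.02e-05). The smallest differences of the called HOX genes that were higher were these 2, whereas HOXB9 at the other end had 7.44. HOXB3 (2.38 ± 0.14), HOXB5 (1.94 ± 0.21), HOXB6 (2.72 ± 0.27), HOXB7 (2.53 ± 0.21) and HOXB8 (2.98 ± 0.24) lay between, and HOXB1, known from the early hindbrain, had 2.36 ± 0.18. In the HOXC cluster HOXC4 (4.97 ± 0.23), HOXC5 (3.94 ± 0.19), HOXC6 (4.24 ± 0.26), HOXC8 (2.92 ± 0.21) and HOXC9 (4.84 ± 0.22) were all higher. In the HOXD cluster HOXD1 (3.55 ± 0.27), HOXD8 (4.72 ± 0.17) and HOXD9 (4.30 ± 0.33) were. In the HOXA cluster HOXA2 (4.37 ± 0.13), HOXA4 (4.97 ± 0.35) and HOXA10 (4.12 ± 0.41) were higher too.

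**Figure D3:**
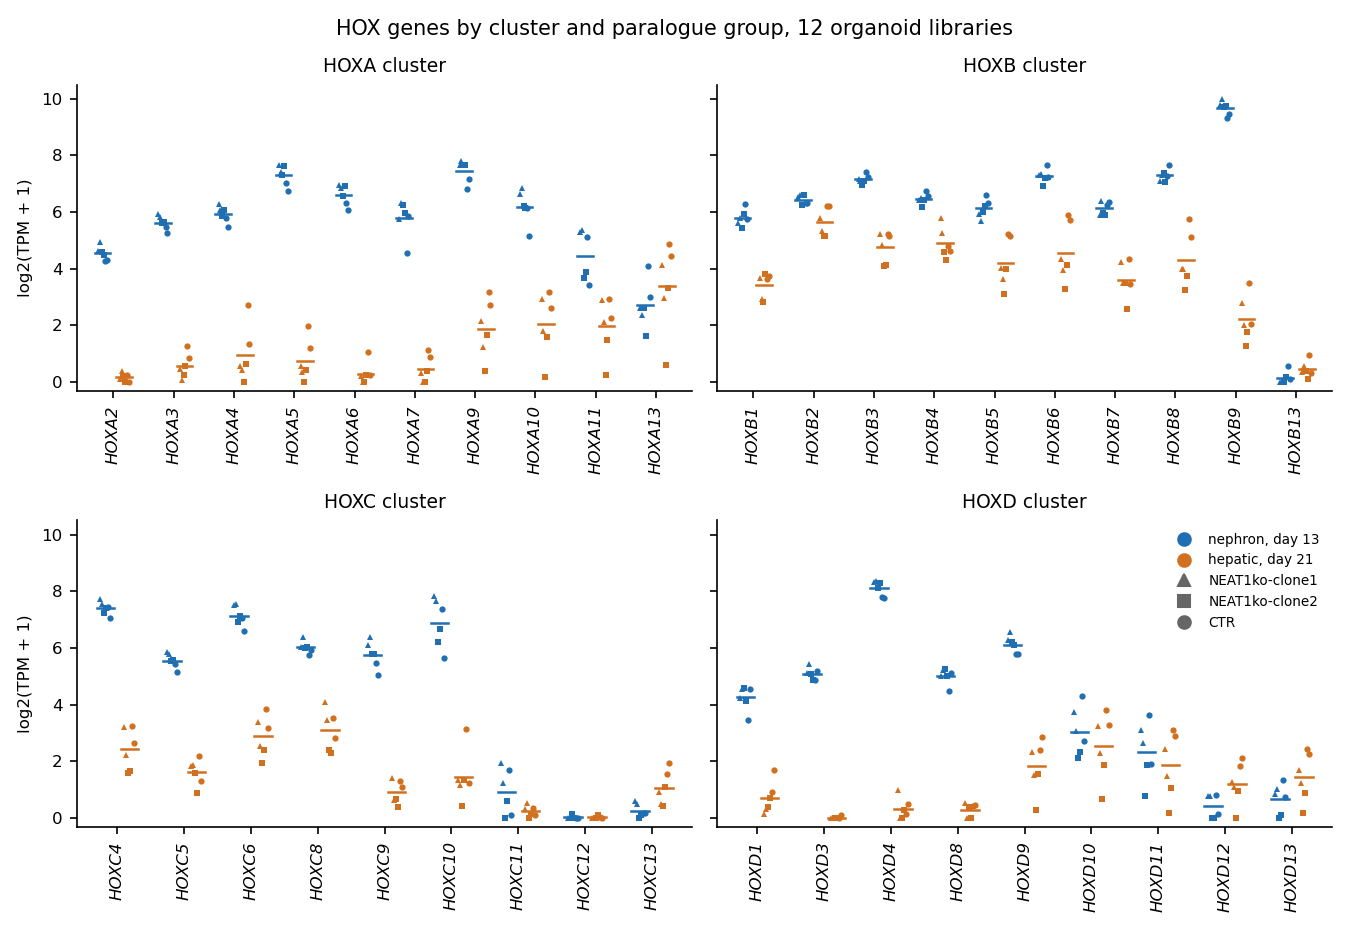
Level of HOX genes as log2(TPM + 1) in the 6 nephron (blue, left) and 6 hepatic (orange, right) libraries, by cluster and in order of paralogue group; symbols show the genotype and lines the mean of 6 libraries. Nephron libraries lie above hepatic ones for the genes shown of paralogue groups 1 to 10 with the exception of HOXD10, and the tissues overlap from group 12 on.

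Hepatic organoids were set apart by transcripts of secreted proteins that the fetal liver makes. Which cells made them was not tested. Over plasma proteins, coagulation factors, complement and apolipoproteins, 46 genes together, 37 were lower in nephron organoids, 1 was higher, 2 were not called, 2 lay below the filter and 4 had repeated symbols. Summed, the list had 425, 467 and 988 TPM in nephron organoids, against 9209, 26690 and 56960 TPM in hepatic organoids. The hepatic libraries spread widely. Those of clone 1 had 56960 and 37410 TPM and those of clone 2 had 38440 and 9209 TPM, against 12990 and 15970 TPM in CTR.

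AFP, alpha-fetoprotein, had 14.7, 16.8 and 72.9 TPM in nephron organoids, against 3820, 12530 and 29660 TPM in hepatic organoids (log2 difference -8.70 ± 0.53, adjusted p = 2.25e-07). ALB, the albumin of later liver, had 0.415, 0.898 and 1.30 TPM in nephron organoids, against 30.8, 170.4 and 697 TPM in hepatic organoids (log2 difference -6.32 ± 0.66, adjusted p = 1.02e-05). Both genes separated the tissues completely, and AFP exceeded ALB in each of the 12 libraries. TTR, the thyroid hormone carrier, had 1.15, 2.53 and 7.20 TPM in nephron organoids, against 425, 1113 and 1620 TPM in hepatic organoids (log2 difference -8.09 ± 0.39, adjusted p = 3.92e-08). AHSG, fetuin A (log2 difference -8.20 ± 0.60, adjusted p = 7.55e-07), and RBP4, the retinol carrier (log2 difference -6.65 ± 0.50, adjusted p = 8.98e-07), were lower to a similar degree. A1BG, a plasma glycoprotein, was the exception, with 7.61 TPM in nephron and 6.02 TPM in hepatic organoids as medians (log2 difference 0.37 ± 0.13, adjusted p = 0.028), and its call was lost after rescaling by size factors, without the 2 hepatic libraries that stood apart, and when any of 5 single libraries was left out (adjusted p of 0.0555 to 0.0652).

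The 3 fibrinogen genes, whose products form the clot, were lower together. FGA had 1.505, 2.36 and 6.62 TPM in nephron organoids, against 420.2, 990 and 2367 TPM in hepatic organoids (log2 difference -7.97 ± 0.44, adjusted p = 1.16e-07). FGB had 5.81, 9.54 and 22.01 TPM in nephron organoids, against 366, 881 and 1804 TPM in hepatic organoids (log2 difference -6.16 ± 0.42, adjusted p = 4.47e-07), and FGG had 7.25 TPM in nephron and 333 TPM in hepatic organoids as medians (log2 difference -5.12 ± 0.48, adjusted p = 4.64e-06). PLG, plasminogen (log2 difference -3.86 ± 0.50, adjusted p = 5.31e-05), and SERPINC1, antithrombin (log2 difference -2.64 ± 0.37, adjusted p = 9.25e-05), were lower as well, and F10, coagulation factor X, was not called (log2 difference -0.26 ± 0.32, adjusted p = 0.509). Of 12 coagulation genes 10 were lower, 1 was not called and 1 lay below the filter. Of 10 apolipoprotein and lipid export genes 9 were tested and all 9 were lower. APOA4, the largest fall of all named genes, had 0.213, 1.69 and 7.75 TPM in nephron organoids, against 470.1, 2214 and 5282 TPM in hepatic organoids (log2 difference -9.20 ± 0.70, adjusted p = 9.45e-07). APOA1, the main protein of high-density lipoprotein, had 63.0, 88.6 and 194 TPM in nephron organoids, against 764, 2818 and 6864 TPM in hepatic organoids (log2 difference -4.61 ± 0.49, adjusted p = 1.15e-05), so that nephron organoids too held it at a clear level. APOC3 (log2 difference -7.93 ± 0.71, adjusted p = 3.14e-06), APOA2 (log2 difference -6.79 ± 0.39, adjusted p = 1.42e-07), APOB (log2 difference -5.83 ± 0.37, adjusted p = 2.70e-07) and APOC1 (log2 difference -3.03 ± 0.25, adjusted p = 1.71e-06) were lower too. Of 10 complement genes 6 were lower, 1 was not called, 1 lay below the filter and 2 had repeated symbols. C3, the central component, had 0.153 TPM in nephron and 10.1 TPM in hepatic organoids as medians (log2 difference -3.42 ± 0.24, adjusted p = 6.21e-07), and C1S, a protease that many fibroblasts make, was not called (log2 difference -0.45 ± 0.32, adjusted p = 0.249).

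Promoters of these genes were searched for short motifs, because the secreted proteins moved together. HNF1 factors, HNF4A and FOXA forkhead factors are known regulators of liver genes. RefSeq promoters (GRCh38.p14) were found for 36 of the 46 genes, as 48 promoters, and the 250 bases before each start were searched on both strands. The HNF1 core GTTAAT occurred in 12 of 48 promoters, 25%, from 11 genes, against 6.23% of all 35116 promoters and 0 of 27 promoters of 20 HOX genes. The forkhead motif TGTTTAC occurred in 3 of 48, 6.25%, against 2.98% of all promoters. CAAAGTCCA, a form of the HNF4 site, occurred in 1 of 48, 2.08%, against 0.325% of all. The TATA motif TATAAA occurred in 7 of 48, 14.6%, against 10.7% of all promoters and 18.5% of HOX promoters. A match describes the letters of the window and does not show that a factor binds there.

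The 250 bases upstream of ALB, AFP, FGA and FGB are shown because these genes gave large falls, hold the HNF1 core and lie as 2 neighbouring pairs on chromosome 4, with AFP 9725 bases from ALB and FGA 12039 bases from FGB in GENCODE 29. Capitals mark this core, which reads ATTAAC where it lies on the opposite strand, as in FGA and FGB. Each sequence runs 5′ to 3′ in the direction of its gene: ALB at chr4:73404037-73404286 (plus strand), AFP at chr4:73435971-73436220 (plus), FGA at chr4:154590743-154590992 (minus) and FGB at chr4:154562730-154562979 (plus).
ALB: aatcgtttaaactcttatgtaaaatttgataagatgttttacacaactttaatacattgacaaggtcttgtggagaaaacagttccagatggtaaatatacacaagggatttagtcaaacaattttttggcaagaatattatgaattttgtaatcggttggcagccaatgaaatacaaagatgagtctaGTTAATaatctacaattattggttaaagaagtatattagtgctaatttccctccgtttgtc
AFP: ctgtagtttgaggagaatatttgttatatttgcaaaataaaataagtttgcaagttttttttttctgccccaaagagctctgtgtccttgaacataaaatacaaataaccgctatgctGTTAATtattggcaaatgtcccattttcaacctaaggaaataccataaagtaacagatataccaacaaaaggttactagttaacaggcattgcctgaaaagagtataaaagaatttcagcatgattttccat
FGA: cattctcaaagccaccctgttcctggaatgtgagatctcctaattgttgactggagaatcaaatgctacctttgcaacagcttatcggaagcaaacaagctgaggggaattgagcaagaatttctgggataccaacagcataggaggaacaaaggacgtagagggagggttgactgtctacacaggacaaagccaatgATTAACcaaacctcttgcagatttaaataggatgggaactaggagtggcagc
FGB: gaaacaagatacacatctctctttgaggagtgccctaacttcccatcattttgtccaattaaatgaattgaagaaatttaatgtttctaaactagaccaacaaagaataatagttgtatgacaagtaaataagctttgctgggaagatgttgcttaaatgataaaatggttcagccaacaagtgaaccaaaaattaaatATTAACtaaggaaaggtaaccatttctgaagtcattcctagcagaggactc

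Transcription factors of the liver were lower in nephron organoids by less, with a median of -0.61 beside -4.27 for plasma proteins. Of 15 factors 8 were lower, 2 were higher, 3 were not called and 2 lay below the filter. HNF4A, a master regulator of hepatocytes, had 0.920, 1.52 and 3.05 TPM in nephron organoids, against 8.27, 14.5 and 27.9 TPM in hepatic organoids (log2 difference -2.71 ± 0.26, adjusted p = 5.10e-06). CEBPA, a leucine zipper factor of hepatocyte metabolism, had 6.602, 10.1 and 20.04 TPM in nephron organoids, against 38.05, 67.1 and 94.7 TPM in hepatic organoids (log2 difference -2.40 ± 0.23, adjusted p = 4.80e-06). FOXA3 (log2 difference -1.995 ± 0.18, adjusted p = 4.09e-06) and FOXA2 (log2 difference -1.47 ± 0.31, adjusted p = 0.00152), pioneer factors of gut endoderm, and TBX3, a factor of the liver bud (log2 difference -1.83 ± 0.28, adjusted p = 2.00e-04), were lower as well. HHEX, an early marker of hepatic endoderm, had 1.99, 5.27 and 11.6 TPM in nephron organoids, against 5.997, 7.50 and 8.76 TPM in hepatic organoids and was not called (log2 difference -0.47 ± 0.25, adjusted p = 0.133), though it was lower without nephron CTR replicate 1 (adjusted p = 0.0218). PROX1 (0.22 ± 0.13) and ONECUT2 (0.26 ± 0.20) were not called either. ATF5 was higher (log2 difference 1.25 ± 0.22, adjusted p = 4.45e-04), and NR5A2 was just past the threshold (log2 difference 0.74 ± 0.29, adjusted p = 0.0481), which it missed after rescaling by size factors, without the 2 hepatic libraries and when any of 8 single libraries was left out (adjusted p of 0.0633 to 0.116).

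Enzymes and receptors of the mature hepatocyte were lower in nephron organoids, not called or below the filter. Of 18 genes 7 were lower, 3 were not called, 7 lay below the filter and 1 was not in the table. ARG1, the last enzyme of the urea cycle, had 0, 0.393 and 1.54 TPM in nephron organoids, against 3.85, 10.8 and 16.2 TPM in hepatic organoids (log2 difference -2.74 ± 0.36, adjusted p = 6.06e-05). CPS1, its first enzyme, had 25, 27.9 and 37.4 TPM in nephron organoids, against 24.4, 29.5 and 53.9 TPM in hepatic organoids and was not called (log2 difference -0.16 ± 0.21, adjusted p = 0.545). CYP3A7, the fetal form of the main drug-metabolising cytochrome, was not called (log2 difference -0.47 ± 0.39, adjusted p = 0.317), nor was ASGR1, a receptor of hepatocytes (log2 difference -0.51 ± 0.26, adjusted p = 0.107). FBP1 (log2 difference -1.64 ± 0.26, adjusted p = 2.14e-04), SLC10A1 (log2 difference -1.63 ± 0.43, adjusted p = 0.00665) and PCK1 (log2 difference -0.99 ± 0.22, adjusted p = 0.00261) were lower, from hepatic medians of 0.849 to 3.32 TPM. UGT2B11, a glucuronosyltransferase with close relatives among which reads may be split, was among the 10 largest falls, with 0, 0.0499 and 0.266 TPM in nephron organoids, against 82.6, 217 and 410.1 TPM in hepatic organoids (log2 difference -7.61 ± 0.32, adjusted p = 1.87e-08). Of 12 genes listed for other gut endoderm 4 were lower, 1 was higher, 4 were not called, 2 lay below the filter and 1 had a repeated symbol. Their sum had 316, 375 and 528 TPM in nephron organoids, against 196, 336 and 398 TPM in hepatic organoids, so the tissues overlapped.

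Most genes of epithelial adhesion were lower in nephron than in hepatic organoids. Of 14 such genes 11 were lower in nephron organoids, 2 were not called and 1 lay below the filter. The summed list had 643, 794 and 1054 TPM in nephron organoids, against 2686, 2982 and 3734 TPM in hepatic organoids. Lung, cortical and hESC libraries had medians of 1367, 40.2 and 2239 TPM, so high sums were not particular to hepatic organoids. CDH1, E-cadherin, had 7.57, 12.7 and 30.9 TPM in nephron organoids, against 212, 279 and 310.4 TPM in hepatic organoids (log2 difference -4.06 ± 0.24, adjusted p = 1.77e-07). CLDN6, a tight junction protein of embryonic epithelia, had 23.1, 40.2 and 51.7 TPM in nephron organoids, against 373, 617 and 659 TPM in hepatic organoids (log2 difference -3.90 ± 0.21, adjusted p = 1.04e-07). GRHL2 and ESRP1, which control transcription and splicing in epithelia, were lower, with log2 differences of -3.73 ± 0.25 and -3.60 ± 0.31. Desmosomal DSP (log2 difference -0.09 ± 0.10, adjusted p = 0.454) and DSG2 (log2 difference -0.15 ± 0.12, adjusted p = 0.304) were not called. Among 10 biliary genes 6 were lower and 2 higher. KRT7 (log2 difference -3.48 ± 0.18, adjusted p = 7.17e-08) and KRT19 (log2 difference -1.79 ± 0.16, adjusted p = 3.08e-06), keratins of bile ducts and other simple epithelia, were lower, as were SPP1 (log2 difference -2.31 ± 0.19, adjusted p = 1.57e-06) and GGT1 (log2 difference -1.53 ± 0.10, adjusted p = 3.55e-07). SOX9, a duct and progenitor factor, was not called (log2 difference 0.65 ± 0.30, adjusted p = 0.0825), and SOX4 was higher (log2 difference 0.67 ± 0.08, adjusted p = 4.28e-05). AQP1, a water channel, had 5.39, 32.6 and 429 TPM in nephron organoids, against 161, 371 and 568 TPM in hepatic organoids (log2 difference -3.14 ± 0.82, adjusted p = 0.00617). The 2 nephron CTR libraries had 114 and 429 TPM of AQP1 and fell within the hepatic range or close to it, and the differences by genotype were -6.03 in clone 1, -3.38 in clone 2 and -0.01 in CTR.

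Core pluripotency transcripts were near 0 in nephron organoids and present in hepatic organoids. Of 10 genes 7 were lower in nephron organoids, 2 were not called and 1 lay below the filter. POU5F1, the core factor OCT4, had 0, 0.0486 and 0.425 TPM in nephron organoids, against 3.30, 34.8 and 63.3 TPM in hepatic organoids (log2 difference -4.64 ± 0.46, adjusted p = 6.86e-06), beside a mean of 152 TPM in hESC. NANOG had 0, 0.0700 and 0.259 TPM in nephron organoids, against 1.28, 26.7 and 43.7 TPM in hepatic organoids (log2 difference -4.17 ± 0.53, adjusted p = 4.26e-05), beside 69.5 TPM in hESC. Hepatic clone 1 replicate 1 held the lowest hepatic value of both genes, and hepatic clone 2 replicate 2 had the highest sum over the list, 2631 TPM. TDGF1, a Nodal co-receptor, ESRG, a transcript named for embryonic stem cells, and GABRP, a GABA receptor subunit, were among the 10 largest falls. TDGF1 had 0, 0.231 and 1.49 TPM in nephron organoids, against 18.6, 250.1 and 436 TPM in hepatic organoids (log2 difference -7.09 ± 0.54, adjusted p = 1.01e-06). ESRG had 0, 0 and 0.3997 TPM in nephron organoids, against 29.8, 343 and 661 TPM in hepatic organoids (log2 difference -7.89 ± 0.55, adjusted p = 5.40e-07), and GABRP had 0, 0.0340 and 0.123 TPM in nephron organoids, against 67.8, 156 and 282 TPM in hepatic organoids (log2 difference -7.15 ± 0.31, adjusted p = 2.30e-08). L1TD1 (log2 difference -5.76 ± 0.42, adjusted p = 6.97e-07) and UTF1 (log2 difference -3.72 ± 0.48, adjusted p = 5.24e-05) were lower as well, while LIN28A (log2 difference -0.48 ± 0.40, adjusted p = 0.322) and SALL4 (log2 difference -0.08 ± 0.24, adjusted p = 0.788), which progenitors of many tissues keep, were not called. Summed, the list had 383, 416.5 and 634 TPM in nephron organoids, against 340, 1294 and 2631 TPM in hepatic organoids. Lung, cortical and hESC libraries had medians of 1814, 239 and 5028 TPM, so high sums of pluripotency transcripts were not particular to hepatic organoids. The part of such transcripts in other hepatic levels was not tested.

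**Figure D4:**
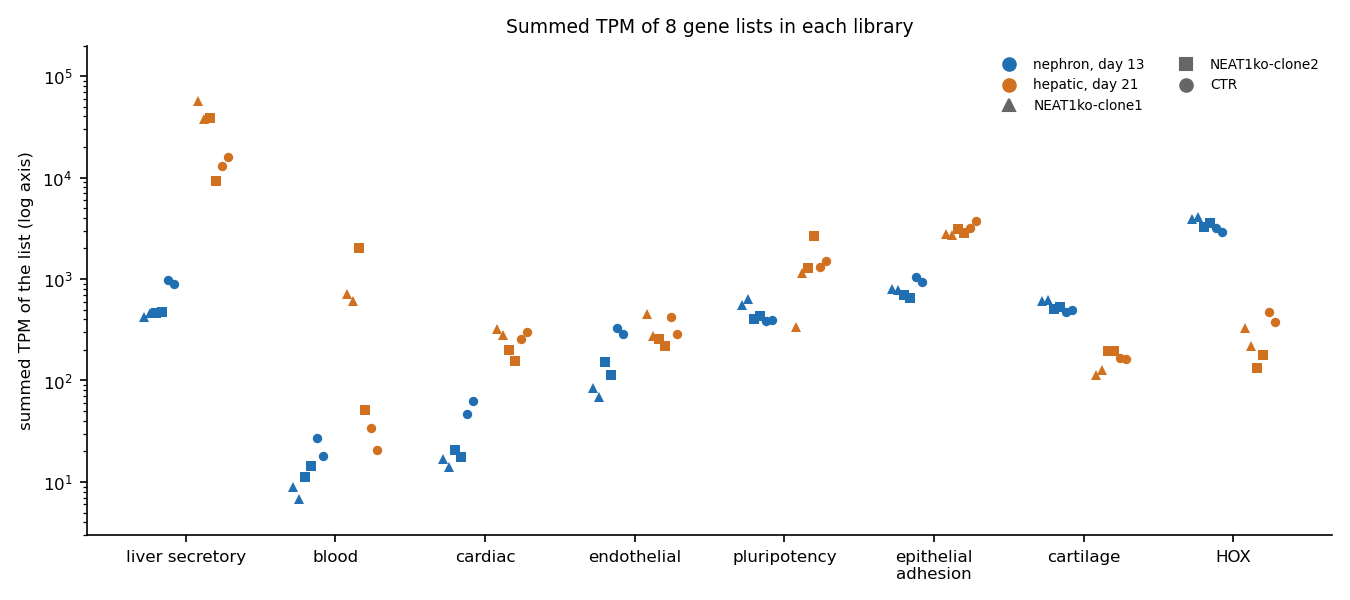
Summed TPM of 8 gene lists in each library on a log axis, with nephron organoids (blue) left of hepatic organoids (orange) and symbols for the genotype. Liver secretory, epithelial and cardiac sums are lower and HOX and cartilage sums higher in all 6 nephron libraries; blood sums reach 2033 TPM in hepatic clone 2 replicate 1 and are at most 51.0 TPM in 3 other hepatic libraries.

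Stromal matrix genes were expressed in both tissues, with lower levels of many of them in nephron organoids. All 20 stromal matrix genes were tested, of which 13 were lower in nephron organoids, 2 were higher and 5 were not called, with a median difference of -0.87. The libraries of the 2 tissues did not overlap for 1 of them, against 32.8% of all tested genes. FN1, fibronectin, was that gene, with 128, 172 and 364 TPM in nephron organoids, against 749, 1336 and 1754 TPM in hepatic organoids (log2 difference -2.75 ± 0.17, adjusted p = 2.98e-07). Summed, the list had 3394, 4288 and 10350 TPM in nephron organoids, against 4794, 9286 and 16130 TPM in hepatic organoids, so the tissues overlapped. Lung, cortical and hESC libraries had medians of 1662, 3328 and 914 TPM.

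Fibrillar collagens of the matrix list were divided between lower and not called. COL1A1 had 242, 299 and 956 TPM in nephron organoids, against 264, 560.2 and 1305 TPM in hepatic organoids (log2 difference -0.60 ± 0.38, adjusted p = 0.192), with a 95% interval from -1.44 to 0.23. COL3A1 had 509, 957 and 3222 TPM in nephron organoids, against 724, 1916 and 4563 TPM in hepatic organoids (log2 difference -0.73 ± 0.45, adjusted p = 0.186), and COL1A2 was not called either (log2 difference 0.41 ± 0.34, adjusted p = 0.32). COL5A1 was lower (log2 difference -1.55 ± 0.34, adjusted p = 0.00207) and its partner COL5A2 was not called (log2 difference -0.52 ± 0.23, adjusted p = 0.0731). The microfibrillar collagen VI genes were lower, COL6A3 most (log2 difference -2.19 ± 0.31, adjusted p = 9.39e-05), with COL6A1 (log2 difference -0.70 ± 0.22, adjusted p = 0.0179) and COL6A2 (log2 difference -0.74 ± 0.27, adjusted p = 0.0318), the last of which was lost without the 2 hepatic libraries that stood apart. Among the small leucine-rich proteoglycans that bind collagen, LUM had 59.8, 83.9 and 418 TPM in nephron organoids, against 182, 382 and 780.3 TPM in hepatic organoids (log2 difference -1.87 ± 0.35, adjusted p = 6.92e-04), and DCN had 7.73, 18.1 and 121 TPM in nephron organoids, against 20.3, 94.7 and 211 TPM in hepatic organoids (log2 difference -1.73 ± 0.64, adjusted p = 0.0343). SPARC (log2 difference -1.36 ± 0.31, adjusted p = 0.0028), MFAP4 (log2 difference -1.17 ± 0.21, adjusted p = 5.50e-04), TNC (log2 difference -1.06 ± 0.14, adjusted p = 5.23e-05), ELN (log2 difference -1.05 ± 0.31, adjusted p = 0.0118), POSTN (log2 difference -0.99 ± 0.39, adjusted p = 0.0486) and FBLN1 (log2 difference -0.62 ± 0.09, adjusted p = 1.67e-04) were lower too. VIM, the intermediate filament of mesenchymal cells, was higher (log2 difference 0.56 ± 0.11, adjusted p = 8.77e-04), as was FBN1 (log2 difference 0.65 ± 0.25, adjusted p = 0.0448). The FBN1 call was lost after rescaling by size factors and after leaving out mitochondrial mRNAs or the liver secretory genes. THY1 had 20.2 TPM in nephron and 24.3 TPM in hepatic organoids as medians and was not called. Calls near the threshold moved with single libraries: they were lost when any of 5 libraries was left out for COL6A2 (adjusted p of 0.0551 to 0.0784), 7 for DCN (0.0521 to 0.0823), 7 for POSTN (0.0687 to 0.115) and 9 for FBN1 (0.05 to 0.107), while COL5A2 was lower without hepatic CTR replicate 2 (0.0497) or hepatic clone 2 replicate 2 (0.0456).

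The matrix differences varied with genotype, and the interaction was called for 1 of the 20 genes. Within clone 1 the nephron mean was below the hepatic mean for 17 of 20 genes and above it for 3, with a median difference of -1.99. Within clone 2 it was again below for 17 and above for 3, with a median of -0.53, and within CTR it was below for 13 and above for 7, with a median of -0.40. Summed, clone 1 had 3471 and 3394 TPM in nephron organoids, against 16130 and 10070 TPM in hepatic organoids. Clone 2 had 4379 and 4196 TPM in nephron organoids, against 7377 and 4794 TPM in hepatic organoids. CTR had 8042 and 10350 TPM in nephron organoids, against 11140 and 8503 TPM in hepatic organoids. Both clones thus lay below CTR in nephron organoids, and clone 1 replicate 1 lay highest in hepatic ones. The highest and the lowest hepatic sum belong to the 2 libraries that stood apart, without which 12 matrix genes were lower and 2 higher. Single genes changed sign between genotypes, as COL1A1 (-2.10 in clone 1, -0.40 in clone 2 and 0.69 in CTR), COL3A1 (-2.502 in clone 1, -0.25 in clone 2 and 0.57 in CTR), COL1A2 (-0.91 in clone 1, 0.71 in clone 2 and 1.44 in CTR) and DCN (-4.01 in clone 1, -1.32 in clone 2 and 0.13 in CTR). That gene was MFAP4 (interaction adjusted p = 0.0249): -2.12 in clone 1, -0.64 in clone 2 and -0.74 in CTR. FMOD, a collagen-binding proteoglycan outside the list, had the smallest interaction p (adjusted p = 0.0168): -4.22 in clone 1, -1.09 in clone 2 and -0.22 in CTR. Fitted alone, with 2 against 2 libraries each, clone 1 had 16 matrix genes called lower and 1 higher, clone 2 had 6 lower and 1 higher, and CTR had 5 lower and 2 higher. In these limma fits COL1A1 was called higher within CTR (adjusted p = 0.0351) and COL1A2 lower within clone 1 (adjusted p = 0.0355), and neither gene had a called interaction.

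**Figure D5:**
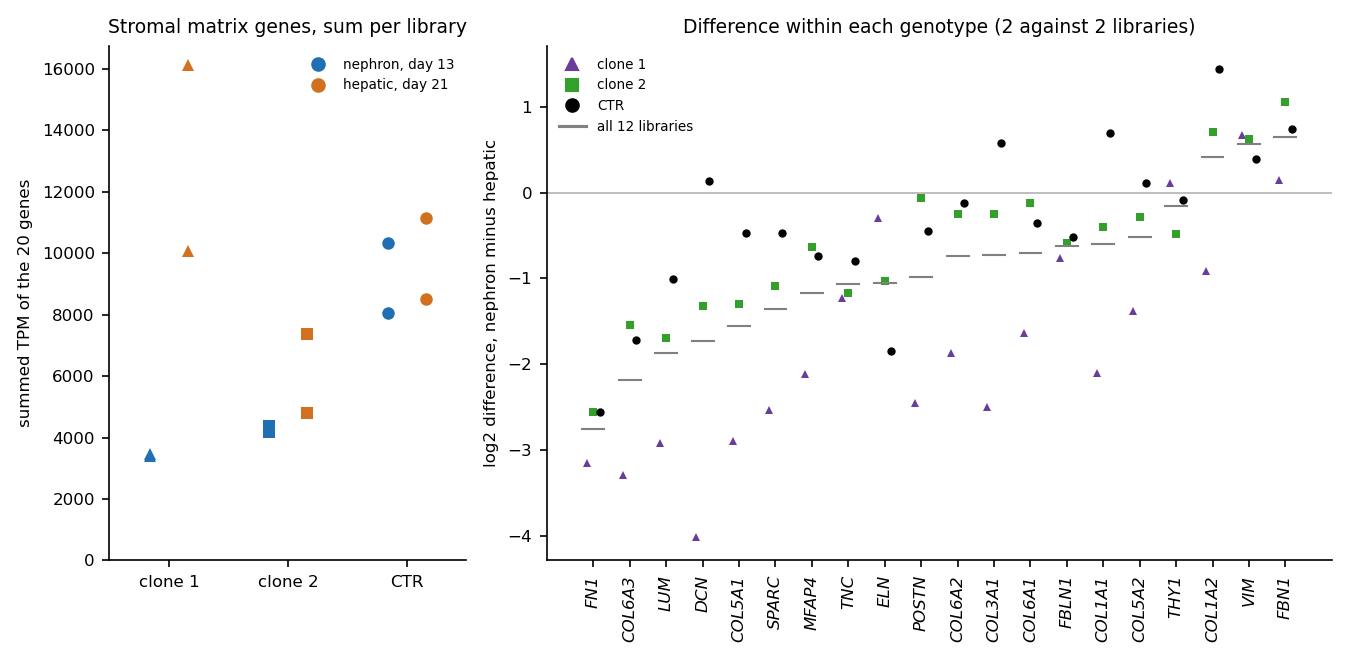
Left, summed TPM of the 20 stromal matrix genes in each library by genotype, nephron organoids (blue) left of hepatic organoids (orange). Right, log2 difference, nephron minus hepatic, of each gene within each genotype, with the grey line for all 12 libraries; clone 1 lies lowest for most genes, down to -4.01 for DCN.

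Receptors and signals of stroma gave calls in both directions, in shares not far from those over all tested genes, 38.1% higher and 20.3% lower. Of 16 genes 6 were higher, 4 were lower and 6 were not called. PDGFRB, a growth factor receptor of pericytes and renal stroma, had 69.9, 76.3 and 105 TPM in nephron organoids, against 9.52, 14.8 and 35.5 TPM in hepatic organoids (log2 difference 2.23 ± 0.16, adjusted p = 5.74e-07). PDGFRA was higher by less (log2 difference 0.97 ± 0.19, adjusted p = 8.95e-04), and the ligands PDGFA (log2 difference -0.43 ± 0.18, adjusted p = 0.0522) and PDGFB (log2 difference -0.48 ± 0.21, adjusted p = 0.0634) were not called. CXCL12, a chemokine of stroma, had 63.0, 77.9 and 143 TPM in nephron organoids, against 29.2, 46.4 and 53.5 TPM in hepatic organoids (log2 difference 0.98 ± 0.14, adjusted p = 1.41e-04). Its receptor CXCR4, entered in the list of gut endoderm genes, was the only one of that list that was higher, with 149, 242 and 344 TPM in nephron organoids, against 4.61, 36.3 and 57.9 TPM in hepatic organoids (log2 difference 3.09 ± 0.51, adjusted p = 3.29e-04). MDK, the growth factor midkine, was higher in all 6 nephron libraries (log2 difference 0.89 ± 0.08, adjusted p = 2.09e-06). HGF, a mesenchymal growth factor for hepatocytes, had 0.649, 0.969 and 2.37 TPM in nephron organoids, against 3.05, 10.6 and 18.2 TPM in hepatic organoids (log2 difference -2.15 ± 0.24, adjusted p = 1.47e-05). IGF2, a fetal growth factor, had 672, 786 and 1634 TPM in nephron organoids, against 1523, 3364 and 7096 TPM in hepatic organoids (log2 difference -1.90 ± 0.28, adjusted p = 1.40e-04), and BMP4 was lower as well (log2 difference -1.0 ± 0.21, adjusted p = 0.00153). FGFR1 was not called (log2 difference -0.04 ± 0.19, adjusted p = 0.871). TGFB2 was higher (log2 difference 1.81 ± 0.52, adjusted p = 0.0106), with -0.20 in clone 1, 2.13 in clone 2 and 3.51 in CTR.

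Regional transcription factors of mesenchyme were called in shares not far from those over all tested genes, which were 38.1% higher and 20.3% lower. Of 25 genes, 23 of them tested, 11 were higher, 4 were lower, 8 were not called, 1 lay below the filter and 1 was not in the table, and the median difference was 0.65. FOXC1 and FOXC2, forkhead factors of paraxial and intermediate mesoderm, separated the tissues. FOXC1 had 56.5, 93.1 and 114 TPM in nephron organoids, against 2.12, 6.40 and 10.98 TPM in hepatic organoids (log2 difference 3.69 ± 0.30, adjusted p = 1.79e-06), and FOXC2 had 9.04, 26.1 and 39.5 TPM in nephron organoids, against 0.710, 1.35 and 2.44 TPM in hepatic organoids (log2 difference 3.34 ± 0.23, adjusted p = 5.75e-07). NR2F1 (log2 difference 4.59 ± 0.49, adjusted p = 1.30e-05) and NR2F2 (log2 difference 2.37 ± 0.23, adjusted p = 6.42e-06), orphan nuclear receptors of mesenchyme, were higher. TWIST1, a factor of mesenchymal state, had 114, 159 and 177 TPM in nephron organoids, against 9.91, 26.5 and 42.4 TPM in hepatic organoids (log2 difference 2.70 ± 0.22, adjusted p = 1.84e-06). MEIS1 (log2 difference 1.89 ± 0.14, adjusted p = 9.99e-07) and MEIS2 (log2 difference 2.15 ± 0.12, adjusted p = 1.16e-07), cofactors of HOX proteins, PRRX1 (log2 difference 1.91 ± 0.33, adjusted p = 4.02e-04), TBX15 (log2 difference 0.79 ± 0.15, adjusted p = 6.69e-04) and SIM1 (log2 difference 1.502 ± 0.28, adjusted p = 6.79e-04) were also higher.

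Factors of visceral and cardiac mesoderm pointed the other way or overlapped. HAND1, a factor of extraembryonic and lateral plate mesoderm, had 125, 225 and 781 TPM in nephron organoids, against 433, 699 and 1240 TPM in hepatic organoids (log2 difference -1.43 ± 0.23, adjusted p = 2.66e-04). NKX2-5, a cardiac factor, was lower (log2 difference -1.73 ± 0.39, adjusted p = 0.00236), and so were FOXF1, a factor of gut mesenchyme (log2 difference -0.83 ± 0.32, adjusted p = 0.0423), and TCF21, a factor of visceral stroma and podocytes (log2 difference -1.02 ± 0.33, adjusted p = 0.0199). The calls of FOXF1 and TCF21 were lost without the 2 hepatic libraries that stood apart, and that of FOXF1 when any of 10 single libraries was left out (adjusted p of 0.0605 to 0.103). HAND2 (log2 difference -0.52 ± 0.37, adjusted p = 0.242), FOXF2 (log2 difference -0.50 ± 0.24, adjusted p = 0.0863), BARX1 (log2 difference -0.44 ± 0.57, adjusted p = 0.525), GATA5 (log2 difference 0.07 ± 0.20, adjusted p = 0.765) and TBX5 (log2 difference 0.23 ± 0.25, adjusted p = 0.451) were not called, although BARX1 was lower without hepatic clone 1 replicate 1 (adjusted p = 0.0205) and FOXF2 without hepatic clone 2 replicate 1 (0.0196). FOXD1, the factor that marks renal stroma, had 5.17, 17.6 and 19.7 TPM in nephron organoids, against 3.56, 11.7 and 15.4 TPM in hepatic organoids and was not called (log2 difference 0.65 ± 0.40, adjusted p = 0.18), though it was higher without nephron CTR replicate 1 (log2 difference 0.99, adjusted p = 0.021). TBX18, a marker of ureteric mesenchyme, was not called (log2 difference 0.08 ± 0.41, adjusted p = 0.885). LHX2, listed for hepatic stellate precursors, had 0.966, 2.5 and 8.33 TPM in nephron organoids, against 0.282, 1.41 and 38.5 TPM in hepatic organoids (log2 difference 0.14 ± 0.70, adjusted p = 0.875), and its highest value came from hepatic clone 2 replicate 2, which also held the highest PAX6, 15.4 TPM. Without that library LHX2 was higher in nephron organoids (log2 difference 0.90, adjusted p = 0.0489).

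Contractile and stellate genes were divided. CNN1 (log2 difference -1.18 ± 0.12, adjusted p = 6.13e-06) and TAGLN (log2 difference -0.74 ± 0.13, adjusted p = 4.63e-04), smooth muscle proteins, were lower, CSPG4, a pericyte proteoglycan, was higher (log2 difference 1.04 ± 0.19, adjusted p = 6.58e-04), and ACTA2 was not called (log2 difference -0.01 ± 0.23, adjusted p = 0.969). Of 10 stellate genes 3 were higher, 4 lower and 3 not called. NCAM1 (log2 difference 1.996 ± 0.17, adjusted p = 2.22e-06), LRAT, which stores retinol as esters (log2 difference 1.25 ± 0.18, adjusted p = 1.00e-04), and NGFR (log2 difference 1.46 ± 0.24, adjusted p = 2.77e-04) were higher, while PDPN, which mesothelium also carries, had 16.6, 17.9 and 22.01 TPM in nephron organoids, against 87.9, 107 and 211 TPM in hepatic organoids (log2 difference -2.67 ± 0.19, adjusted p = 5.66e-07).

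Other cell types were unevenly present. Of 10 blood genes 8 were lower in nephron organoids, 1 was not called and 1, PTPRC, lay below the filter, and the summed list had 6.80, 12.9 and 27.04 TPM in nephron organoids, against 20.8, 331 and 2033 TPM in hepatic organoids. The hepatic level rested on 3 libraries, clone 1 replicate 1 with 708 TPM, clone 1 replicate 2 with 611 TPM and clone 2 replicate 1 with 2033 TPM, and the other 3 had 20.8 to 51.0 TPM. HBE1, embryonic epsilon globin, had 2.29, 3.62 and 7.20 TPM in nephron organoids, against 6.495, 208 and 1338 TPM in hepatic organoids (log2 difference -4.23 ± 1.01, adjusted p = 0.00373). HBZ, HBG2 and HBA1, also globins of embryo and fetus, were lower, with log2 differences of -3.85 ± 0.99, -4.33 ± 0.99 and -2.97 ± 0.70, where reads of HBG2 and HBA1 may be split with near-identical copies. GATA1, the erythroid factor, was lower (log2 difference -2.07 ± 0.60, adjusted p = 0.0114), and its differences by genotype were -3.46 in clone 1, -2.78 in clone 2 and 0.03 in CTR. In these 3 libraries the liver secretory sum was also above that of the other hepatic libraries, and the part of one in the other was not tested.

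Cardiac genes were lower in nephron organoids, 7 of 10, with 1 higher and 2 not called, and the sum was 13.99, 19.2 and 62.2 TPM in nephron organoids, against 157, 268 and 323 TPM in hepatic organoids. MYL4 (log2 difference -4.57 ± 0.36, adjusted p = 1.39e-06) and MYL7 (log2 difference -4.49 ± 0.45, adjusted p = 6.97e-06), atrial myosin light chains, ISL1, a factor of the second heart field (log2 difference -3.23 ± 0.24, adjusted p = 8.27e-07), and TNNT2, cardiac troponin T (log2 difference -2.79 ± 0.43, adjusted p = 1.99e-04), were lower. HCN4, the pacemaker channel, was lower too (log2 difference -2.36 ± 0.21, adjusted p = 2.65e-06), and ACTN2 was higher (log2 difference 0.67 ± 0.19, adjusted p = 0.00863). ACTC1, the actin of embryonic heart and muscle, had 7.50, 9.73 and 20.6 TPM in nephron organoids, against 183, 300.2 and 1417 TPM in hepatic organoids (log2 difference -5.17 ± 0.27, adjusted p = 8.66e-08). Of 10 cartilage genes 5 were higher, 1 was lower, 3 were not called and 1 lay below the filter. COL2A1, the collagen of cartilage that somites and other embryonic tissues also make, had 219.8, 343 and 442 TPM in nephron organoids, against 19.9, 38.8 and 84.6 TPM in hepatic organoids (log2 difference 3.07 ± 0.19, adjusted p = 2.29e-07). COL11A1 (log2 difference 2.12 ± 0.19, adjusted p = 2.72e-06) and SOX6 (log2 difference 1.88 ± 0.28, adjusted p = 1.35e-04) were higher with it, while ACAN, the defining proteoglycan, had 1.48 TPM in nephron and 1.95 TPM in hepatic organoids as medians and was not called.

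Of 13 neural genes 5 were higher, 1 was lower, 4 were not called and 3 lay below the filter. DCX, a microtubule protein of young neurons, was higher (log2 difference 3.05 ± 0.27, adjusted p = 2.90e-06), as was TUBB3 (log2 difference 1.40 ± 0.18, adjusted p = 5.75e-05), while STMN2 was lower (log2 difference -1.86 ± 0.58, adjusted p = 0.0161) and SOX1 stayed under 1 TPM in all 12 libraries. PAX3, a factor of somites and neural crest, had 2.87, 42.2 and 69.1 TPM in nephron organoids, against 0.220, 0.478 and 15.2 TPM in hepatic organoids (log2 difference 3.53 ± 0.52, adjusted p = 1.44e-04), and MYOD1 and MYOG, which define skeletal muscle, stayed under 2 TPM. Endothelial genes were mostly not called, 9 of 12, with 3 lower. KDR, a VEGF receptor (log2 difference -1.66 ± 0.28, adjusted p = 3.84e-04), TEK, an angiopoietin receptor (log2 difference -2.41 ± 0.34, adjusted p = 1.01e-04), and VWF (log2 difference -0.76 ± 0.23, adjusted p = 0.0133) were lower, the last of these no longer without the 2 hepatic libraries, whereas PECAM1 (log2 difference -0.60 ± 0.43, adjusted p = 0.242), CDH5 (log2 difference 0.19 ± 0.39, adjusted p = 0.698) and TIE1 (log2 difference -0.15 ± 0.41, adjusted p = 0.765) were not called and differed by genotype in sign. CDH5, the cadherin of endothelium, differed by -1.44 in clone 1, 0.56 in clone 2 and 1.44 in CTR.

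Signalling pathways known to pattern both organs were compared next. Of 25 WNT pathway genes 6 were higher, 9 were lower, 9 were not called and 1 had a repeated symbol. WNT6, a ligand of epithelia, had 0, 0.128 and 0.365 TPM in nephron organoids, against 15.4, 29.3 and 56.3 TPM in hepatic organoids (log2 difference -4.80 ± 0.27, adjusted p = 1.36e-07). RSPO2, a potentiator of WNT signals, had 0, 0.189 and 3.33 TPM in nephron organoids, against 6.24, 27.1 and 58.8 TPM in hepatic organoids (log2 difference -3.96 ± 0.38, adjusted p = 5.18e-06). The receptors FZD2 (log2 difference 1.57 ± 0.10, adjusted p = 4.03e-07) and FZD7 (log2 difference 0.92 ± 0.18, adjusted p = 0.00117) and the nuclear effector LEF1 (log2 difference 1.17 ± 0.19, adjusted p = 3.07e-04) were higher. Of the secreted inhibitors SFRP1 was higher (log2 difference 1.82 ± 0.26, adjusted p = 1.06e-04), and SFRP2 (log2 difference -1.89 ± 0.55, adjusted p = 0.0107), SFRP5 (log2 difference -1.76 ± 0.49, adjusted p = 0.00847) and DKK1 (log2 difference -1.61 ± 0.38, adjusted p = 0.00316) were lower. The SFRP5 difference turned direction with CTR libraries alone, where it was 0.22 and not called. WNT4, which triggers the epithelial transition of nephron progenitors, had 0.240, 3.08 and 5.80 TPM in nephron organoids, against 2.90, 5.13 and 7.90 TPM in hepatic organoids and was not called (log2 difference -0.70 ± 0.31, adjusted p = 0.0692). WNT5A (log2 difference 0.19 ± 0.16, adjusted p = 0.333) and WNT5B (log2 difference 0.00 ± 0.20, adjusted p = 0.998) were not called. WNT9B, the inducing signal of the ureteric bud, was listed at 0 in all 12 libraries.

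Enzymes of retinoic acid synthesis were divided between the tissues. ALDH1A2, the main embryonic enzyme in mesoderm, had 16.2, 19.4 and 22.6 TPM in nephron organoids, against 0.720, 1.96 and 6.10 TPM in hepatic organoids (log2 difference 2.60 ± 0.27, adjusted p = 1.10e-05). ALDH1A1 had 1.28, 3.48 and 7.32 TPM in nephron organoids, against 73.2, 103 and 228 TPM in hepatic organoids (log2 difference -4.68 ± 0.32, adjusted p = 4.46e-07), and ALDH1A3 was lower as well (log2 difference -2.83 ± 0.39, adjusted p = 8.93e-05). Neither ALDH1A2 nor ALDH1A1 overlapped between tissues. RARA, a retinoic acid receptor, had 87.8, 92.7 and 95.3 TPM in nephron organoids, against 18.3, 22.01 and 28.4 TPM in hepatic organoids (log2 difference 1.99 ± 0.09, adjusted p = 2.72e-08), while RARG (log2 difference 0.09 ± 0.13, adjusted p = 0.603) and RXRA (log2 difference -0.03 ± 0.12, adjusted p = 0.826) were not called. RXRG (log2 difference 1.66 ± 0.16, adjusted p = 6.10e-06) and the retinoic acid carrier CRABP2 (log2 difference 0.76 ± 0.20, adjusted p = 0.00617) were higher. The degrading enzymes CYP26A1 (log2 difference -1.53 ± 0.61, adjusted p = 0.0476) and CYP26B1 (log2 difference -1.06 ± 0.22, adjusted p = 0.00157) were lower, though CYP26A1 was no longer called when any of 10 single libraries was left out (adjusted p of 0.0578 to 0.115) and was 0.0432 with clone 1 libraries alone, and CYP26C1 was not called. In the list of 16 genes 6 were higher, 4 were lower, 5 were not called and 1 lay below the filter. These shares were not far from those over all tested genes, 38.1% higher and 20.3% lower.

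Of 18 FGF pathway genes 4 were higher, 4 were lower, 9 were not called and 1 lay below the filter. Over all tested genes 38.1% were higher and 20.3% lower, so the share of higher members was smaller here. The direction varied with genotype. Within clone 1 the nephron mean was above the hepatic mean for 11 of 17 tested members and below for 6, with a median difference of 1.29. Within clone 2 it was above for 9 and below for 8 (median 0.28), and within CTR above for 6 and below for 11 (median -0.52). FGF10, a mesenchymal ligand, had 12.5, 16.5 and 21.7 TPM in nephron organoids, against 2.23, 5.54 and 12.9 TPM in hepatic organoids (log2 difference 1.37 ± 0.26, adjusted p = 8.16e-04). ETV5 (log2 difference 1.72 ± 0.36, adjusted p = 0.00151) and DUSP6 (log2 difference 1.61 ± 0.39, adjusted p = 0.00429), targets of FGF signalling, were higher. FGFR3 (log2 difference -1.25 ± 0.12, adjusted p = 5.27e-06) and FGFR4, the receptor of hepatocytes (log2 difference -1.22 ± 0.10, adjusted p = 1.28e-06), were lower, as was FGF19, an endodermal ligand (log2 difference -2.48 ± 0.56, adjusted p = 0.00256). FGF8 and FGF9, ligands of the nephron lineage, were not called, with 0.76 ± 0.85 and 0.49 ± 0.22.

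Proliferation genes were higher in part. Of 15 cell cycle genes 8 were higher, none was lower and 7 were not called, beside 38.1% higher and 20.3% lower over all tested genes. Within clone 1 the nephron mean was above the hepatic mean for all 15, with a median difference of 0.80. Within clone 2 it was above for 8 and below for 7 (median 0.08), and within CTR above for 10 and below for 5 (median 0.27). MKI67 had 50.5, 64.0 and 86.0 TPM in nephron organoids, against 21.4, 25.9 and 37.6 TPM in hepatic organoids (log2 difference 1.19 ± 0.14, adjusted p = 2.85e-05), MCM2 was higher (log2 difference 1.15 ± 0.21, adjusted p = 6.03e-04), and CDK1 (log2 difference -0.02 ± 0.15, adjusted p = 0.911) and CCNB1 (log2 difference 0.16 ± 0.16, adjusted p = 0.421) were not called. Of 16 cholesterol synthesis genes 9 were higher, 1 was lower, 5 were not called and 1 had a repeated symbol. STARD4, a sterol carrier, had 69.1, 117 and 152 TPM in nephron organoids, against 30.03, 30.4 and 41.8 TPM in hepatic organoids (log2 difference 1.69 ± 0.15, adjusted p = 3.44e-06), HMGCS1 (log2 difference 1.26 ± 0.20, adjusted p = 2.48e-04) and CYP51A1 (log2 difference 1.10 ± 0.13, adjusted p = 3.28e-05) were higher, and SC5D was lower (log2 difference -1.03 ± 0.15, adjusted p = 9.84e-05). Of 10 iron and heme genes 8 were lower, 1 was not called and 1 lay below the filter. HMOX1, heme oxygenase (log2 difference -1.91 ± 0.11, adjusted p = 1.99e-07), SLC40A1, the iron exporter (log2 difference -2.43 ± 0.31, adjusted p = 4.58e-05), and FTL, ferritin light chain (log2 difference -0.96 ± 0.12, adjusted p = 3.38e-05), were lower, and TFRC, the transferrin receptor, was not called (log2 difference 0.42 ± 0.17, adjusted p = 0.0526).

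Glycolytic genes depended on single libraries and on scaling. Of 16 genes 5 were higher, 2 were lower, 8 were not called and 1 lay below the filter, as LDHA was listed at or near 0. After rescaling by size factors none was higher, and without the 2 hepatic libraries that stood apart 9 were. ENO1 had 2500, 2973 and 3512 TPM in nephron organoids, against 574, 1798 and 2311 TPM in hepatic organoids (log2 difference 1.01 ± 0.30, adjusted p = 0.0116), where the lowest hepatic value came from clone 1 replicate 1, and SLC2A3, a glucose transporter, was lower (log2 difference -1.47 ± 0.27, adjusted p = 6.32e-04). Mitochondrial mRNAs took 9.68% to 11% of TPM in nephron libraries and 11.7% to 14.4% in hepatic libraries. Of 13 such mRNAs 7 were lower and 6 were not called, and 11 were lower after rescaling or without the 2 hepatic libraries. MT-CO2, a cytochrome oxidase subunit, had 7105, 7396 and 8162 TPM in nephron organoids, against 11930, 16600 and 18920 TPM in hepatic organoids (log2 difference -1.09 ± 0.14, adjusted p = 4.25e-05). Of 9 paraspeckle genes 4 were higher, 1 was lower and 4 were not called. The proteins NONO (log2 difference 0.76 ± 0.12, adjusted p = 1.77e-04) and RBM14 (log2 difference 0.78 ± 0.09, adjusted p = 1.57e-05) were higher in all 6 nephron libraries, MALAT1, a neighbouring non-coding RNA of NEAT1, was lower (log2 difference -0.69 ± 0.23, adjusted p = 0.0245) except without nephron clone 1 replicate 1 (0.0515) or 2 (0.0555), and SFPQ (log2 difference 0.26 ± 0.11, adjusted p = 0.0688) and PSPC1 (log2 difference -0.23 ± 0.12, adjusted p = 0.128) were not called. After rescaling 2 paraspeckle genes were higher and 3 were lower.

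The WT libraries offered a second view with another stage of nephron organoids. Between WT nephron organoids of day 7 and WT hepatic organoids of day 21, 8792 of 21122 genes were called, which is 41.6%, with 3368 higher in nephron organoids (15.9%) and 5424 lower (25.7%). Of the genes called in both comparisons, 5787 in number, 4844 had the same sign. HOX genes were higher in 33 of 38 tested and lower in 1, HOXA13 (log2 difference -3.18 ± 0.36, adjusted p = 0.00129). HOXD4 averaged 700.1 ± 96.03 TPM in nephron and 0.297 ± 0.126 TPM in hepatic organoids (SD, n = 2 each) (log2 difference 9.07 ± 0.38, adjusted p = 7.40e-05). HOXD10 (log2 difference 3.15 ± 0.44, adjusted p = 0.00278) and HOXD11 (log2 difference 2.84 ± 0.43, adjusted p = 0.00355), not called on day 13, were among those that were higher. Nephron progenitor genes were higher in 10 of 12 and lower in 1. MEOX1 averaged 91.5 ± 64.3 TPM in nephron and 0.413 ± 0.459 TPM in hepatic organoids (SD, n = 2 each) (log2 difference 5.87 ± 0.60, adjusted p = 8.92e-04), and SIX2 averaged 1.04 ± 0.0578 TPM in nephron and 0.806 ± 0.685 TPM in hepatic organoids (SD, n = 2 each) and was not called (log2 difference 0.23 ± 0.47, adjusted p = 0.719). PAX8 had a mean of 0.281 TPM in WT nephron organoids of day 7 and was below the filter.

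Secreted liver proteins were lower in 7 of 10 plasma proteins, 6 of 9 coagulation genes, 1 of 4 complement genes and 7 of 8 apolipoprotein genes, and none was higher. AFP averaged 0.675 ± 0.630 TPM in nephron and 3089 ± 1609 TPM in hepatic organoids (SD, n = 2 each) (log2 difference -10.80 ± 0.46, adjusted p = 8.22e-05). APOA1 averaged 1.04 ± 0.437 TPM in nephron and 804 ± 373 TPM in hepatic organoids (SD, n = 2 each) (log2 difference -8.56 ± 0.39, adjusted p = 9.69e-05), a lower nephron level than on day 13. Of 20 stromal matrix genes 13 were lower and 2 were higher. COL3A1 averaged 32.6 ± 0.518 TPM in nephron and 1199 ± 702 TPM in hepatic organoids (SD, n = 2 each) (log2 difference -5.03 ± 0.55, adjusted p = 0.00114), LUM averaged 1.57 ± 0.116 TPM in nephron and 347 ± 182 TPM in hepatic organoids (SD, n = 2 each) (log2 difference -6.97 ± 0.48, adjusted p = 2.69e-04), and COL1A1, not called on day 13, was lower (log2 difference -2.65 ± 0.43, adjusted p = 0.00461). FBLN1 was higher instead of lower as on day 13 (log2 difference 0.78 ± 0.20, adjusted p = 0.0243), and DKK1 turned direction in the same way. DKK1, the WNT inhibitor, averaged 2058 ± 157 TPM in nephron and 24.6 ± 18.8 TPM in hepatic organoids (SD, n = 2 each) (log2 difference 6.56 ± 0.49, adjusted p = 3.38e-04) and NKD1, a feedback gene of WNT signalling, averaged 392 ± 133 TPM in nephron and 10.1 ± 5.18 TPM in hepatic organoids (SD, n = 2 each) (log2 difference 5.19 ± 0.36, adjusted p = 2.78e-04). TWIST1 (log2 difference 1.41 ± 0.34, adjusted p = 0.0197) and FOXC2 (log2 difference 5.45 ± 0.30, adjusted p = 1.40e-04) were higher, and HAND1 was lower (log2 difference -4.69 ± 0.30, adjusted p = 2.07e-04). Cell cycle genes gave 4 higher and 3 lower of 15, and mitochondrial mRNAs 7 higher and none lower of 13. The mitochondrial direction was opposite to that on day 13, where 7 were lower and none was higher. Without WT nephron replicate 1 the count of called genes was 4918, and without replicate 2 it was 5289.

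Whether the tissue difference depended on genotype was tested gene by gene. The interaction was called for 62 of 22835 genes, 0.272%, and 29 of these were also called for tissue, while 4356 genes had an unadjusted p under 0.05. The count rested on single libraries, and each fit without 1 library leaves 1 library in its group. It was 0 without nephron clone 1 replicate 2, hepatic CTR replicate 1 or hepatic clone 1 replicate 1, and it was 383 without hepatic clone 1 replicate 2, 1811 without hepatic clone 2 replicate 1 and 1092 without hepatic clone 2 replicate 2. The 8 genes with the smallest p are given with their difference in each genotype. MYL7 differed by -6.35 in clone 1, -4.36 in clone 2 and -2.76 in CTR. GPR39, a zinc-sensing receptor, differed by 1.53 in clone 1, 0.21 in clone 2 and -1.93 in CTR. MMP2, a matrix protease, differed by -0.23 in clone 1, 0.92 in clone 2 and 1.22 in CTR, and TNNI1, slow skeletal troponin I, by -1.67 in clone 1, 0.73 in clone 2 and 1.73 in CTR. AKR1B15, an aldo-keto reductase with a close relative among which reads may be split, differed by -3.04 in clone 1, -0.03 in clone 2 and 0.37 in CTR. PAX2, MFAP4 and FMOD are given above. Of these 8 genes clone 1 had the lowest value in 6 and the highest in the others, PAX2 and GPR39.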

How the data were processed

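RNA was measured by polyA RNA-seq. The deposited TPM values were made by the authors, and the submitters' processing notes name Trim Galore 0.6.7 with cutadapt 4.1, FastQC 0.11.9, STAR 2.7.10a, featureCounts 2.0.1 and GRCh38. Strandedness is not given in the sources used here. The table held 37415 genes in 62 libraries, each library summing to 1000000 TPM. TPM carries no count, so no count test was possible and depth is unknown. The authors' deposited tables of comparisons were not used here.

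From the TPM, genes with 1 TPM in at least 2 libraries were tested on log2(TPM + 1) with limma 3.58.1 in R 4.3.3, with a mean-variance trend, genotype as a covariate and Benjamini-Hochberg adjustment over all tested genes, two-sided. The dependence on genotype was an F test of 2 interaction terms. The procedure was tested on simulated data. Rows whose symbol occurs more than once were tested but not named. Some further list members were counted but are not reported by name here.

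Named genes were NEAT1, the 10 largest rises and 10 largest falls among called genes with a mean of at least 20 TPM in the higher tissue and no overlap, up to 5 called members per direction and 3 uncalled members of each of 34 gene lists, all stromal matrix, regional and HOX genes, cell type markers and the 8 genes with the smallest interaction p. The comparison, lists and members were chosen with earlier results of these data known. Positions are from GENCODE 29 and promoters from RefSeq (GRCh38.p14). Alternatives covered pseudocount, filter, scaling, design, single genotypes and left-out libraries.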

Additional observations from a re-analysis of the deposited data

Results flagged for a closer look

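The difference between nephron and hepatic organoids depended on genotype, by the limma interaction test across all genes, for the 8 genes with the smallest p among 62 called. FMOD had an adjusted p of 0.0168, with differences of -4.22 in clone 1, -1.09 in clone 2 and -0.22 in CTR. MYL7 had an adjusted p of 0.0168, with -6.35 in clone 1, -4.36 in clone 2 and -2.76 in CTR. The other 6 had an adjusted p of 0.0249. PAX2 differed by 5.76 in clone 1, 2.61 in clone 2 and 3.13 in CTR, and MFAP4 by -2.12 in clone 1, -0.64 in clone 2 and -0.74 in CTR. GPR39, MMP2, TNNI1 and AKR1B15 changed sign, with 1.53, -0.23, -1.67 and -3.04 in clone 1, against -1.93, 1.22, 1.73 and 0.37 in CTR. Each value compares 2 nephron with 2 hepatic libraries, and the number of genes called ranged between 0 and 1811 when 1 library was left out. Of the hepatic clone 1 libraries, replicate 1 was one of the 2 that stood apart. Without both of those libraries each clone keeps 1 hepatic library, with no replicate to show its spread. Such a fit cannot decide whether these differences hold.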

How the results depend on the processing

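The tissue comparison called 13332 genes as deposited, between 9845 (CTR libraries alone) and 14266 (a mean for each of 6 groups) under most alternatives, and 12278 to 13256 when 1 library was left out. With clone 1 libraries alone 8881 genes were called, and with clone 2 alone 4705, each from 2 against 2 libraries. Correlations of the replicate difference between groups lay between -0.0792 and 0.219, and those between hepatic groups were 0.0988, 0.0717 and 0.219. A replicate block shared by both tissues gave 13262 genes. A pairing of replicates within 1 tissue alone was not tested. The interaction count was 106 with the replicate block, 22 without the mean-variance trend, 1269 without the 2 hepatic libraries that stood apart, and 0 to 1811 when 1 library was left out; why was not tested. The WT comparison called 4918 genes without nephron replicate 1 and 5289 without replicate 2, and 4918 to 6891 over all its left-out libraries.

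Of 263 named genes, 230 kept their call whichever of the 12 libraries was left out, 12 lost it in at least 1 of these fits and 21 gained one. Size factors changed the call of 20 of 263 genes and the direction of none, and they ended the calls of A1BG, ENO1, FBN1, MMP2, NKD1, NR5A2, SALL1 and VEGFA. Among genes tested in both fits and called in at least one of them, the sign turned with CTR libraries alone for C1S (0.74), COL1A1 (0.69), DCN (0.13), F10 (0.59), NKD1 (-0.28), SFRP5 (0.22) and TIE1 (1.17). With clone 1 libraries alone it turned for CDH5 (-1.44), COL1A2 (-0.91), CYP26A1 (0.0432), GATA5 (-0.68), GPR39 (1.53), MMP2 (-0.23), TBX18 (-1.33), TGFB2 (-0.20) and TNNI1 (-1.67). Without CTR it turned for GPR39 (0.87). TPM gives no depth, so precision at low levels cannot be stated.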
